A study of Mus musculus with 40 samples.

Results

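Mouse retinas with oxygen-induced retinopathy (OIR) whose eyes had received a control immunoglobulin (IgG) were compared with retinas of control mice at postnatal day 19 (P19). The comparison took 8 of the 40 libraries in the study, chosen by their labels, with 4 retinas in each group and 1 whole retina in each library. All mice were C57BL/6J, and no mutant allele or transgene is named. OIR pups breathed 75% oxygen from P7 to P12, were returned to room air, and had 1 µl of control IgG at 0.4 µg/µl injected into the vitreous at P14. The control group is labelled nOIR, and whether its eyes were injected is not stated, so the difference holds OIR, the injection and the IgG together. The labels call the samples of a condition independent but tie none to a mouse or litter, so retinas may share an animal. The p-values rest on the spread between retinas within groups, estimated over all 40 libraries. The other groups of the study were OIR retinas given antibodies to VEGFA, ANG2 or both, and the same set of groups at P17.

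In the OIR model, high oxygen stops the growth of the retinal capillaries and removes part of them. On return to room air the retina without vessels becomes short of oxygen, hypoxia-inducible factors (HIF) are stabilised, and neurons and Müller glia release VEGFA and other signals that drive sprouts out of the retina into the vitreous as tufts. Microglia, the resident macrophages of the retina, gather at the tufts, and the tufts later regress while normal capillaries grow back, so P19 lies in the phase between peak neovascularization and repair.

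The libraries held 15059714 to 21477010 expected counts, and markers of the retina were high in all 8, with the 22 rod genes summing to 72020 to 101000 CPM (counts scaled to library size with TMM factors). Summed levels of genes of other tissues overlapped between groups, except those of skeletal muscle, whose 8 measured genes summed to 11.9 to 13.6 CPM in control and 13.9 to 20.03 in OIR retinas. Pigment epithelium genes summed to 1285 to 2310 CPM in control and 2024 to 2496 in OIR retinas, lens genes to 68.3 to 162 and 131 to 288, red blood cell genes to 453 to 914 and 442 to 909, and the 7 measured lymphocyte and neutrophil genes of 20 listed to 2.10 to 5.58 and 2.20 to 7.42. Control replicate 4 stood apart in the myelin gene Mbp, at 420 CPM against 21.8 to 144 in the other 7 libraries. The groups also differed in sex and in a trend with gene length. All 4 OIR retinas and control replicates 1 and 2 carried Y-linked counts (178 to 218 CPM), whereas control replicates 3 and 4 carried Xist (345 and 447 CPM). Y-linked counts in control replicates 3 and 4 were 7.50 and 0.574 CPM. Fits on retinas with Y-linked counts, given below, leave out these 2 controls. Libraries of the groups not compared stayed in those fits, also those with Xist, and entered the estimate of the spread. In the shortest 10% of the genes the median log2 change was 0.38, and it was -0.20 in the longest 10%. The part of either in the results was not tested beyond the fits given below.

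**Figure D1:**
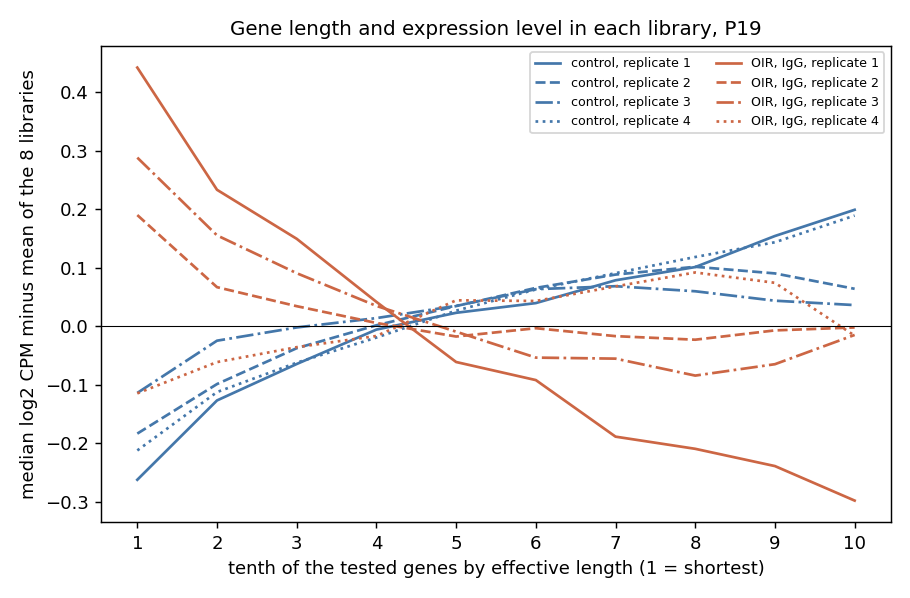
Median log2 CPM of each library minus the mean of the 8 libraries (vertical axis), for 10 equal bins of the tested genes from the shortest to the longest effective length (horizontal axis), with 1 line per retina. In the shortest bin 3 OIR retinas lie at 0.44, 0.19 and 0.29 and the 4 controls lie at -0.26 to -0.11, while OIR replicate 4 lies among the controls at -0.11.

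At P19, 216 of 23495 genes tested differed at an adjusted p under 0.05 (edgeR quasi-likelihood test, Benjamini-Hochberg), which is 0.919% of the genes. Higher in OIR were 193 (0.821%) and lower were 23 (0.0979%), and 11 of the 216 were further copies of a symbol in the table. The median log2 change over all genes was -0.05, and 45.58% of all genes tested had a change above 0. At an unadjusted p under 0.05 were 2968 genes. All 4 OIR retinas lay on 1 side of all 4 controls in 210 of the 216, against 11% of all genes tested. The calls were made on the same 8 libraries, so this share is no separate support for them. The called higher genes included members of the hypoxia, myeloid, complement, interferon-response, endothelial and pericyte lists. The list with the most lower calls was that of potassium channels, with 4. Leaving out 1 library moved the count of 216: without control replicates 1 to 4 in turn it was 66, 81, 103 and 108, and without OIR replicates 1 to 4 it was 73, 115, 108 and 410. Of the 216 calls, 47 were kept without each of the 8 libraries in turn, 27 were kept under all 12 other settings of the analysis, and 25 passed both. With the gene-length trend removed 106 of the 216 kept the call (103 higher and 3 lower). Among retinas with Y-linked counts alone, which leaves 2 controls, 31 kept it.

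The 25 genes that kept their call throughout were all higher in OIR. They were Ndufa4l2, Adm, Apln, Higd1b, Lyz2, Cd68, Tyrobp, Ctss, C1qa, C1qb, C1qc, B2m, Ifitm3, Ifi27l2a, Id1, Mgp, Anxa3, S100a6, S100a11, Tmsb4x, Arpc1b, Gng11, Rgs2, Nnat and Tmem37. Some of these (Ifi27l2a, Mgp, Anxa3, S100a11, Tmsb4x, Arpc1b, Gng11, Rgs2 and Nnat) fall outside the naming rule and were chosen after their values were seen. In a whole retina, more cells of a type and more RNA per cell cannot be told apart, which holds for every gene below.

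**Figure D2:**
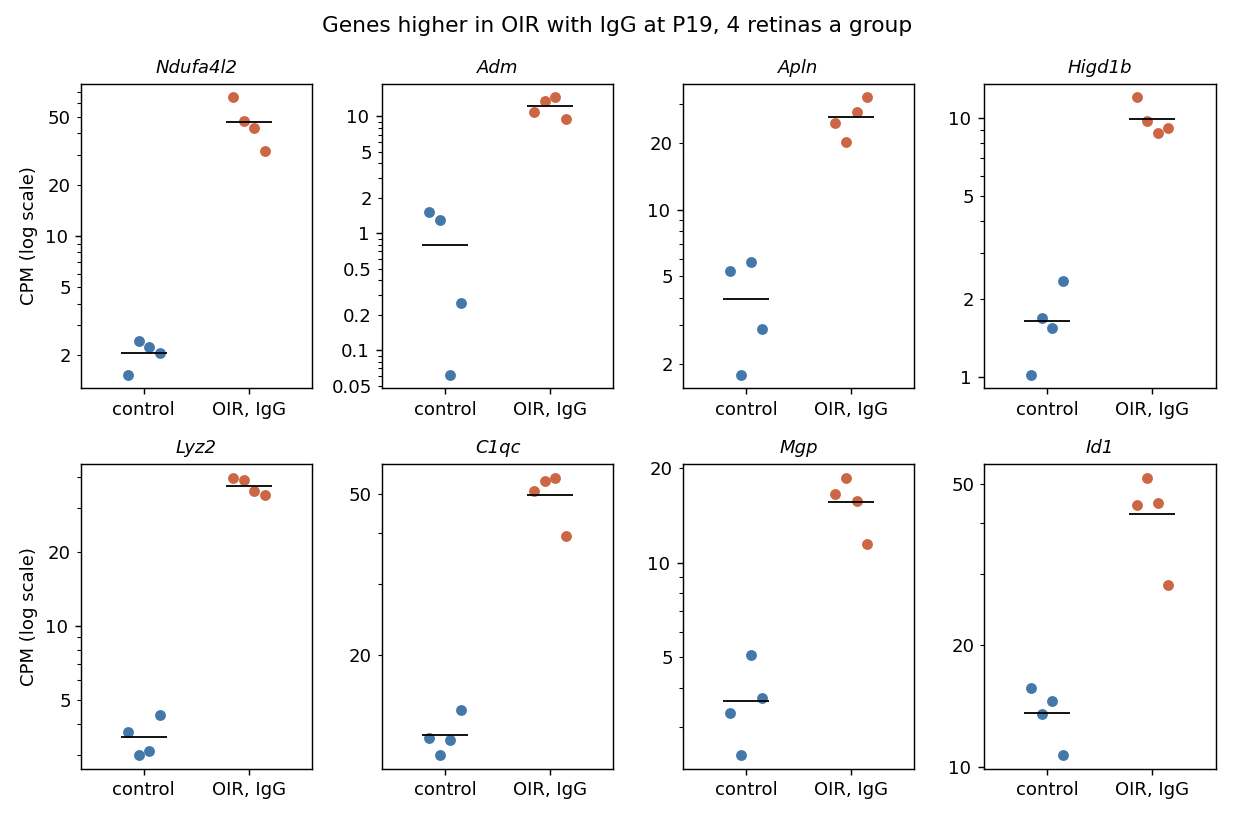
CPM on a log axis in the 4 control and the 4 OIR retinas for 8 genes called higher. Each point is 1 retina and each bar is the group mean. No OIR retina overlaps a control in any of the 8 panels, and the gap is widest for Ndufa4l2 (1.53 to 2.40 against 31.6 to 65.0 CPM).

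Hypoxia genes outside glycolysis were split between a few with large changes and a majority with small ones. Of 35 measured HIF targets, 6 were called higher and none lower, with a median log2 change of 0.42. The 6 calls became 2, 4, 3 and 4 without control replicates 1 to 4 and 3, 4, 3 and 5 without OIR replicates 1 to 4. Ndufa4l2, a HIF-induced mitochondrial protein that pericytes also express (GRCm38 chromosome 10, 127514967 to 127517154), was at 1.53, 2.40, 2.23 and 2.04 CPM in controls and at 65.0, 47.0, 42.7 and 31.6 CPM in OIR. It was the gene with the smallest p in the comparison, 22.6-fold higher (log2 change 4.50, SE 0.30, adjusted p = 2.4e-14). Adm encodes the vasodilator peptide adrenomedullin and was at 1.53, 1.31, 0.062 and 0.255 CPM in controls and 10.99, 13.6, 14.5 and 9.60 CPM in OIR. The lowest OIR retina was thus above the highest control by a wide margin, and the fitted change was 15.4-fold (SE 0.48 on the log2 scale, adjusted p = 1.9e-06). Hmox1, the heme-degrading enzyme heme oxygenase 1, was at 1.78 to 3.35 CPM in controls and at 20.5, 14.2, 9.40 and 7.06 CPM in OIR (5.003-fold, adjusted p = 0.0087). Its call was lost without control replicate 1 or OIR replicate 1. Stc2, the secreted glycoprotein stanniocalcin 2, was at 0 to 0.327 CPM against 1.21 to 2.48 CPM (adjusted p = 0.022, lost without control replicate 1 or 3 or OIR replicate 3).

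The other called members of the hypoxia list changed less. Fam162a, a HIF-responsive mitochondrial protein, was at 83.1 to 94.4 CPM in controls and at 112 to 200 CPM in OIR (1.72-fold, adjusted p = 0.038), and lost the call with the length trend removed and without any library other than OIR replicate 4. Vegfa, the main ligand of sprouting, was at 109, 106, 84.0 and 95.0 CPM in controls and 135, 178, 152 and 204 CPM in OIR. These groups did not overlap, but the adjusted p of 0.047 for the 1.70-fold change was lost without any 1 of the 8 libraries. Uncalled members included the carbonic anhydrase Car9, at 0 to 0.496 CPM against 0.654 to 1.88 CPM (adjusted p = 0.34), and the mitophagy receptor Bnip3 at 1.18-fold (adjusted p = 0.67). None of 23 glycolysis and lactate genes was called, with a median log2 change of -0.07. The glucose transporter Slc2a1 stood at 1.2985-fold (adjusted p = 0.38) and lactate dehydrogenase Ldha at 1.16-fold (adjusted p = 0.66). The lowest member was hexokinase 2, Hk2, at 88.7 against 49.1 CPM, with no overlap between groups and an adjusted p of 0.056. Without overlap 5 of the 23 were lower and none higher, beside 1023 lower and 1559 higher of all 23495 genes tested.

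The stretch upstream of Fam162a is shown because it holds the core of the hypoxia response element bound by HIF, ACGTG, on its reverse strand. The 215 bases from 250 to 36 before the RefSeq start (GRCm38.p6, chr16:36071597-36071811, minus strand) were searched on both strands, and the match is in capitals.
Fam162a: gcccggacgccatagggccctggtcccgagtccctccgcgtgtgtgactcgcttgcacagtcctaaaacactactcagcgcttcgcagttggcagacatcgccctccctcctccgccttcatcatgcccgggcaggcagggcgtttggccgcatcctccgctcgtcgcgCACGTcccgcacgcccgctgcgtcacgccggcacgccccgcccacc
The core occurred in 14.1% of all 32851 RefSeq windows of this length. Of the 6 called hypoxia genes 4 had a window, and 2 of these held it, Fam162a and Vegfa, where the window with the match lies inside the gene and is not shown.

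Genes of sprouting vessels gave 1 clear change. Apln encodes apelin, a peptide of endothelial tip cells, and was at 5.29, 1.80, 5.83 and 2.902 CPM in controls and 24.7, 20.3, 27.8 and 32.2 CPM in OIR (6.67-fold, SE 0.35 on the log2 scale, adjusted p = 3.1e-06). It was the only called member of 24 tip cell and neovascular genes, whose median log2 change was 0.49. Angpt2, the angiopoietin that loosens vessels, was at 3.43 to 4.99 CPM in controls and at 9.56, 6.35, 3.04 and 10.4 CPM in OIR. OIR replicate 3 lay below all controls and the other 3 above them (1.68-fold, adjusted p = 0.43). Esm1 and Plvap, markers of neovascular endothelium, stood at 0.395 ± 0.551 against 0.718 ± 0.365 CPM and at 4.39 ± 0.835 against 5.37 ± 0.731 CPM (SD, n = 4 each; edgeR adjusted p = 0.85 and adjusted p = 0.84).

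Of 26 endothelial genes 3 were called higher and none lower, with a median log2 change of 0.59. None was called without control replicate 1 or 4 or OIR replicate 1. Emcn, the sialomucin endomucin of capillaries and veins, was at 0 to 1.67 CPM in controls and at 12.1, 4.02, 3.10 and 6.15 CPM in OIR (7.12-fold, adjusted p = 0.02, lost without control replicate 1, 2 or 4 or OIR replicate 1). Cldn5, the tight junction protein claudin-5, has its reads divided between 2 rows of the table. Summed, it was at 6.88, 8.22, 11.8 and 6.30 CPM in controls and 21.1, 17.9, 18.6 and 22.3 CPM in OIR (2.41-fold, adjusted p = 0.014). With the rows as deposited its adjusted p was 0.034, which 7 of the 8 single libraries decided, and the length-corrected p was 0.081. Ctla2a, a protease inhibitor of endothelium, rose 2.71-fold (adjusted p = 0.021, lost without control replicate 1 or 4 or OIR replicate 1 or 3). Receptors did not pass the test: Kdr was at 54.1 to 101 CPM against 76.8 to 130 CPM (adjusted p = 0.75), Flt1 at 1.06-fold (adjusted p = 0.93) and Tek at 1.02-fold (adjusted p = 1.0). Pecam1, the endothelial adhesion molecule, was at 2.32 ± 0.561 against 1.73 ± 0.631 CPM (SD, n = 4; edgeR adjusted p = 0.82).

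Outside the lists, further genes known from endothelium were called, named here after their values were seen. Ecscr, an endothelial surface protein, was at 0.458 to 3.57 CPM against 5.23 to 12.8 CPM (4.63-fold, adjusted p = 0.0089). Tm4sf1, a membrane protein of endothelial filopodia, was at 7.02 to 11.2 against 18.6 to 34.3 CPM (2.80-fold, adjusted p = 0.013). The small GTPase Rhoj was at 6.26 to 13.3 against 19.1 to 23.9 CPM (2.36-fold, adjusted p = 0.03), and the leukocyte adhesion molecule Vcam1 at 11.3 to 22.4 against 31.7 to 45.0 CPM (2.17-fold, adjusted p = 0.049). None of these 4 overlapped between groups, but this held for 210 of the 216 calls, so it is no separate support. In the endothelial list, 4 of 26 genes were higher and 1 was lower without overlap, beside 1559 higher and 1023 lower of all 23495 genes tested. With the length trend removed Rhoj was at an adjusted p of 0.053. Ecscr lost its call without control replicate 2 or 4, Tm4sf1 without control replicate 1 or 4 or OIR replicate 1, Rhoj without any library except control replicate 2 or OIR replicate 4, and Vcam1 without any 1 of the 8.

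Among 20 pericyte and smooth muscle genes 3 were called higher although the list's median log2 change was -0.13, so the called members did not move with the rest. Higd1b, a mitochondrial protein specific to pericytes in brain and retina, was at 1.02, 1.69, 1.55 and 2.34 CPM in controls and 12.03, 9.72, 8.78 and 9.19 CPM in OIR (5.97-fold, SE 0.33 on the log2 scale, adjusted p = 3.2e-06). Rgs5, a regulator of G-protein signalling in pericytes, was at 44.5, 51.9, 36.7 and 44.5 CPM against 112, 87.7, 77.0 and 98.0 CPM (2.11-fold, adjusted p = 0.0068). Myl9, a smooth muscle myosin light chain, rose 2.10-fold (adjusted p = 0.031) but not with the length trend removed (adjusted p = 0.16), nor without control replicate 1, 2 or 3 or OIR replicate 1 or 3. Pdgfrb, the pericyte receptor for platelet-derived growth factor, was at 5.16 to 15.2 CPM in controls and 5.24 to 8.43 CPM in OIR, and smooth muscle actin Acta2 was at 1.91, 4.08, 1.92 and 13.6 CPM against 7.41, 9.39, 8.33 and 11.99 CPM (adjusted p = 0.46). Of Acta2, control replicate 4 lay above all OIR retinas.

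Myeloid genes formed the largest group of changes. Of 29 macrophage and general myeloid genes 11 were called higher and none lower (median log2 change 1.61), with 6 of 22 genes of activated microglia (0.71) and 3 of 12 of homeostatic microglia (0.61). Leaving out control replicates 1 to 4 in turn left 5, 8, 7 and 7 macrophage calls, and leaving out OIR replicates 1 to 4 left 8, 10, 9 and 12; activated microglia had 3 without control replicate 1 and 5 or 6 otherwise. The 29 macrophage genes together summed to 83.7 to 107 CPM in controls and to 202 to 247 CPM in OIR. Lyz2, the lysozyme of macrophages, neutrophils and activated microglia (chromosome 10, 117277331 to 117282321), was at 3.70, 2.99, 3.10 and 4.33 CPM in controls and 39.9, 39.1, 35.3 and 33.8 CPM in OIR. The 4 OIR retinas lay within a narrow range, and the change was 10.5-fold (SE 0.36 on the log2 scale, adjusted p = 7.4e-08). Cd68, a lysosomal protein of phagocytes, was at 1.08, 2.78, 2.42 and 3.77 CPM against 16.7, 17.5, 12.6 and 12.7 CPM (5.87-fold, adjusted p = 0.00023). Tyrobp and Fcer1g encode adaptors that pass on signals of myeloid receptors. Tyrobp was at 3.76, 4.79, 5.64 and 4.84 CPM in controls and 26.02, 22.5, 23.8 and 15.8 CPM in OIR (4.62-fold, adjusted p = 1.0e-05), and Fcer1g rose 4.05-fold (adjusted p = 0.00023).

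Of the 12 homeostatic microglia genes, Cx3cr1, P2ry12 and Fcrls were called, and 1 to 3 were called without single libraries. Cx3cr1, the fractalkine receptor, was at 10.1, 5.44, 7.69 and 4.63 CPM in controls and 15.4, 25.7, 24.6 and 20.975 CPM in OIR (3.11-fold, adjusted p = 0.0016). P2ry12, the purinergic receptor of surveying microglia, was at 4.47 to 7.97 against 12.5 to 22.05 CPM (2.51-fold, adjusted p = 0.037), a call that held only when OIR replicate 4 was the library left out. Fcrls rose 3.60-fold (adjusted p = 0.03; lost without control replicate 2, 3 or 4 or OIR replicate 2 or 3). Csf1r, the receptor that keeps microglia alive, was at 12.3 to 42.0 CPM in controls and 27.97 to 41.9 CPM in OIR and was not called; control replicate 2 lay above every OIR retina. Aif1, which encodes the microglial marker IBA1, has its reads divided among 4 rows; summed, it was at 0.701, 2.29, 0.930 and 1.73 CPM against 8.86, 9.30, 9.25 and 4.82 CPM (5.65-fold, adjusted p = 3.3e-05). As deposited, its row was at an adjusted p of 0.0087 and lost the call without control replicate 1 or 3, and the sum was chosen after seeing the data.

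Activated microglial genes included Trem2, a lipid-sensing receptor, which was at 3.57, 3.87, 3.85 and 1.43 CPM in controls and 13.8, 12.5, 11.1 and 12.5 CPM in OIR (3.93-fold, adjusted p = 0.00049). Lgals3, the galactose-binding protein galectin-3, rose 3.17-fold (adjusted p = 0.018), and was lost without control replicate 1, 2 or 3 or OIR replicate 1 or 3. Apoe, the lipid carrier of glia and macrophages, was at 1170, 1539, 1596 and 1583 CPM against 3203, 3256, 2888 and 2592 CPM (2.03-fold, adjusted p = 0.0087), and the tetraspanin Cd9 was 2.10-fold higher (adjusted p = 0.0087). Both lost the call without control replicate 1, and with the length trend removed they were at an adjusted p of 0.0502 (Apoe) and 0.059 (Cd9). Not every member of the list was higher: Spp1, osteopontin, was at 71.7 to 89.6 CPM in controls and 58.5 to 71.1 CPM in OIR (0.773-fold, adjusted p = 0.55), and Gpnmb was at 8.29 to 39.1 against 9.11 to 32.9 CPM.

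Several called macrophage genes were low in controls. Mrc1, the mannose receptor of perivascular macrophages, was at 0.064 CPM in control replicate 1 and at 0 in the other 3, and at 2.47, 3.32, 3.44 and 1.93 CPM in OIR (adjusted p = 0.0068). Adgre1, the macrophage marker F4/80, was at 0 to 2.39 against 4.34 to 7.87 CPM (7.40-fold, adjusted p = 0.025, lost without control replicate 1, 2 or 3 or OIR replicate 1). Cd300c2, a myeloid receptor, was at 0 to 1.03 against 5.74 to 6.81 CPM (10.8-fold, adjusted p = 0.0042). F13a1, Ms4a7 and Lilrb4a, named after their values were seen, were called as well: F13a1 was at 0 to 0.436 against 1.37 to 3.84 CPM, Ms4a7 at 0.153 to 1.25 against 2.48 to 6.48 CPM, and Lilrb4a at 0 in 3 controls and 0.062 CPM in the fourth against 0.654 to 3.25 CPM. F13a1 kept its call only without control replicate 2 or OIR replicate 4, and Ms4a7 lost it without control replicate 1, 3 or 4 or OIR replicate 3, whereas Lilrb4a kept it without each library. Casp1, the caspase of the inflammasome, was at 0 in all 4 controls and at 0.26, 1.31, 1.295 and 0.457 CPM in OIR (adjusted p = 0.035, kept only without OIR replicate 4 among the single libraries). None of 28 chemokine, cytokine and receptor genes was called; Ccl2 was at 0 to 0.064 CPM against 0 to 0.607 CPM.

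A minority of the complement and lysosome lists was called. The 3 chains of C1q, which starts the classical pathway and in the nervous system comes mainly from microglia, are neighbours on chromosome 4. C1qa was at 8.86, 14.3, 10.4 and 10.9 CPM in controls and 36.7, 43.0, 40.9 and 29.96 CPM in OIR. C1qb was at 18.6, 26.9, 29.8 and 25.6 CPM against 94.3, 80.5, 105 and 64.6 CPM. C1qc was at 12.5, 11.4, 12.3 and 14.7 CPM against 50.9, 53.8, 54.7 and 39.4 CPM. The fold changes of the chains were 3.38, 3.41 and 3.90, with adjusted p of 1.9e-06, 4.3e-06 and 1.7e-07. With the receptor C3ar1 (5.37-fold, adjusted p = 0.0038) they made 4 called of 19 complement genes (median log2 change 1.44), and 4 or 5 were called without any 1 library. Of 21 cathepsin and lysosome genes 3 were called, Cd68 and the cysteine proteases Ctss (2.54-fold, adjusted p = 0.00049) and Ctsh (1.89-fold, adjusted p = 0.0039). A positive change was found in 20 of the 21 (median 0.43), beside 45.58% of all genes tested.

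Interferon-response and antigen presentation genes were higher in part. Of 35 measured interferon-response genes 7 were called higher and none lower (median log2 change 0.61), and of 19 antigen presentation genes 4 were called higher (0.67), with Psmb8 in both lists. Ifitm3 and Ifitm2, membrane proteins that block virus entry, are neighbours on chromosome 7. Ifitm3 was at 4.02, 5.99, 2.48 and 8.25 CPM in controls and 28.6, 19.9, 25.7 and 15.7 CPM in OIR (4.31-fold, adjusted p = 2.6e-05), and Ifitm2 at 3.23 to 5.35 against 10.2 to 18.1 CPM (3.11-fold, adjusted p = 0.0025). B2m, the light chain of MHC class I, was at 23.6, 29.3, 34.9 and 41.6 CPM against 98.7, 81.4, 108 and 58.5 CPM (2.68-fold, adjusted p = 0.00038). The immunoproteasome subunit Psmb10 rose 2.05-fold (adjusted p = 0.0068, lost without control replicate 1). Psmb8, another such subunit, and H2-Ab1, a chain of MHC class II, have their reads divided between rows; summed, Psmb8 was at 2.68 to 4.71 against 6.45 to 22.5 CPM (adjusted p = 0.0022) and H2-Ab1 at 1.91 to 3.61 against 6.82 to 11.7 CPM (adjusted p = 0.0018). As deposited, their rows were at adjusted p = 0.0087 (Psmb8) and adjusted p = 0.01 (H2-Ab1), and both lost the call without control replicate 1 or 2 or OIR replicate 1. The transcription factor Irf8 of myeloid cells rose 3.22-fold (adjusted p = 0.023), Rtp4 4.98-fold (adjusted p = 0.015) and Ifi27 2.13-fold (adjusted p = 0.027). The membrane tether Bst2, named after its values were seen, was at 1.66 to 3.46 against 5.59 to 7.88 CPM, without overlap (2.86-fold, adjusted p = 0.048). Irf8, Rtp4, Ifi27 and Bst2 each lost the call without control replicate 1, 2 or 4 or OIR replicate 1, Rtp4 also without OIR replicate 3, Ifi27 also without control replicate 3 or OIR replicate 2, and Bst2 without any 1 of the 8. With the length trend removed Ifi27 and Bst2 were not called (adjusted p = 0.14 and adjusted p = 0.15). The 7 interferon-response calls became 2, 2, 5 and 3 without control replicates 1 to 4 and 2, 5, 5 and 7 without OIR replicates 1 to 4, and the 4 antigen presentation calls became 1 or 2 without control replicate 1 or 2 or OIR replicate 1. Other core interferon genes did not pass: Ifit3 was at 0.969-fold (adjusted p = 0.98) and Isg15 at 0.585 against 2.57 CPM (adjusted p = 0.11).

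The sequences upstream of B2m, Bst2 and Ifitm2 are shown because these were the called genes of the 2 lists whose window held the core of the interferon-stimulated response element, GAAANNGAAA. The search covered both strands of the bases from 250 to 36 before each RefSeq start (GRCm38.p6), and matches are in capitals. Each is written in the direction of its gene: B2m at chr2:122147437-122147651 (plus strand), Bst2 at chr8:71537508-71537722 (minus strand) and Ifitm2 at chr7:140955997-140956211 (minus strand).
B2m: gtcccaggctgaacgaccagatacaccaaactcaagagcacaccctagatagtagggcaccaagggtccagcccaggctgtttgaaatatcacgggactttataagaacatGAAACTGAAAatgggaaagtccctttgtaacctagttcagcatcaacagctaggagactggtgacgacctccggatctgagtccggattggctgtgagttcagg
Bst2: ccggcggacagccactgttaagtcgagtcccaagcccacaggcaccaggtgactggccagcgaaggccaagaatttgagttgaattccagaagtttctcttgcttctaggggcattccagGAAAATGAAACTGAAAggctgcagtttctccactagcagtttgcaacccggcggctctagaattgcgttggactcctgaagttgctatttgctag
Ifitm2: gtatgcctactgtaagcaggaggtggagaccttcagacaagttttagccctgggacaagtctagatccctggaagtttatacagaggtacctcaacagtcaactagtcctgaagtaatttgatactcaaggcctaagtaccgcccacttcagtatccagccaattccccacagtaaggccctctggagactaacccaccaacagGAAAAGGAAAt
The capitals of Bst2 hold 2 overlapping matches. Of the 10 called genes of the 2 lists 7 had a window, and 3 of these held the core, which occurred in 2.58% of all 32851 windows. No match was found upstream of Ifitm3, Irf8, Psmb8 or Psmb10, which says only that these letters are not in that window.

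**Figure D3:**
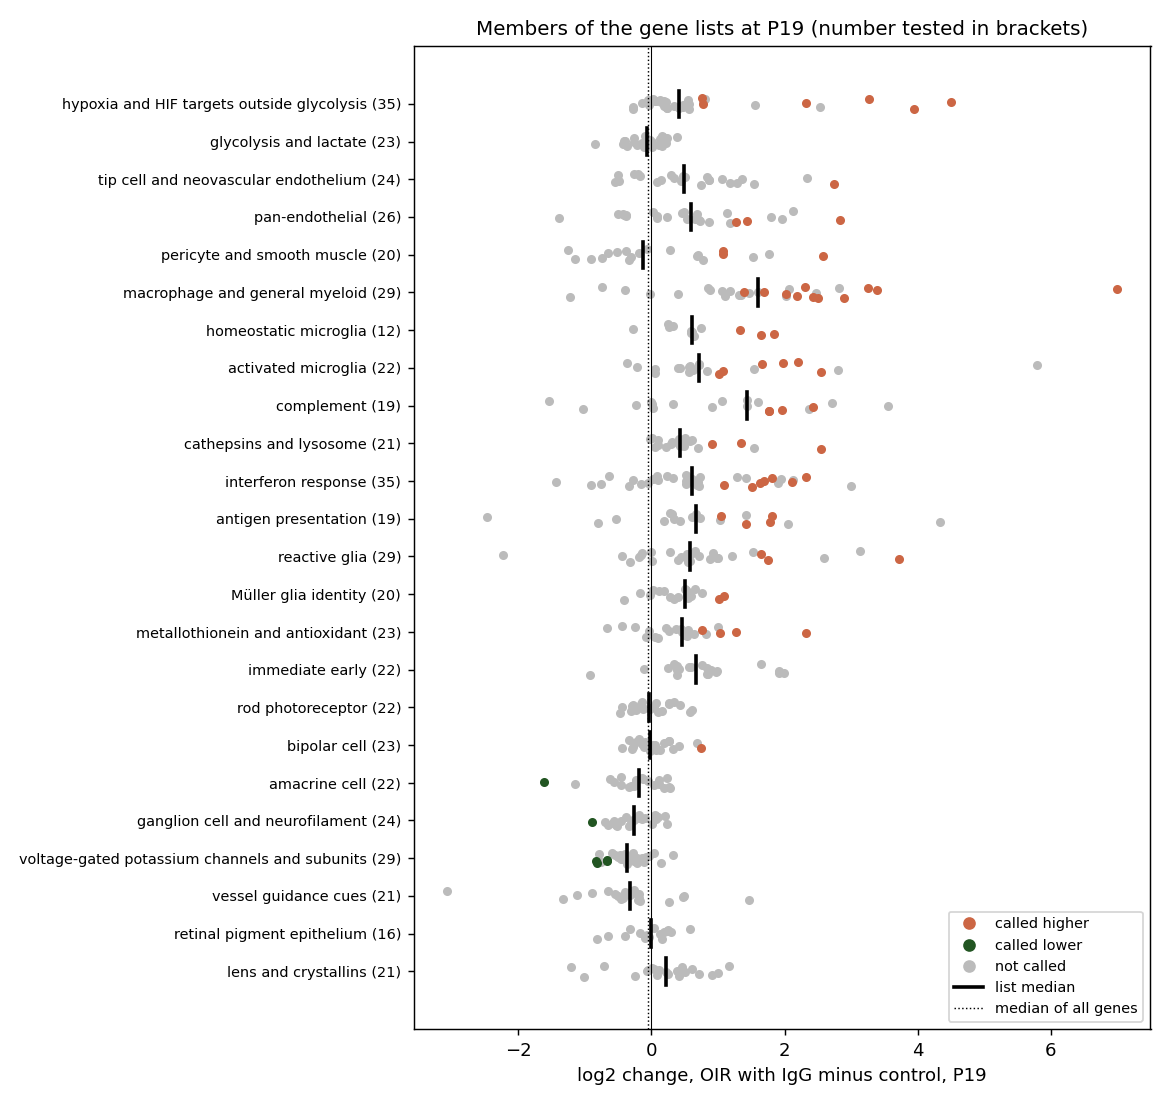
Log2 change of every measured member of 24 gene lists (OIR with IgG minus control, P19), 1 point per gene, coloured where called, with the list median as a bar and the median of all genes (-0.05) as a dotted line. The macrophage and general myeloid list and the complement list lie furthest to the right, with medians of 1.61 and 1.44. Activated and homeostatic microglia lists have medians of 0.71 and 0.61. Glycolysis and rod photoreceptor lists lie near the median of all genes at -0.07 and -0.03, and the potassium channel list lies to the left at -0.37.

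Of 29 reactive glia genes 3 were called higher (median log2 change 0.58) and of 20 genes of Müller glia, the supporting glia that span the retina, 2 were called (0.51). S100a6, a calcium-binding protein of reactive glia, was at 5.29, 4.08, 5.77 and 10.1 CPM in controls and 25.5, 21.4, 20.05 and 12.1 CPM in OIR (3.12-fold, adjusted p = 0.0025). The transcription factor Cebpd was at 5.70 to 9.18 against 20.3 to 33.8 CPM (3.35-fold, adjusted p = 0.0073). Edn2, endothelin 2, which stressed photoreceptors release, was at 0 to 0.407 CPM against 4.68, 3.13, 2.82 and 2.23 CPM (adjusted p = 0.016, lost without control replicate 1, 2 or 3 or OIR replicate 1). Gfap, the intermediate filament of reactive glia, was at 72.7, 40.2, 47.6 and 112 CPM in controls and 149, 142, 142 and 109 CPM in OIR. Control replicate 4, the library with high Mbp, lay above OIR replicate 4, and the 1.99-fold change was not called (adjusted p = 0.17). Crym, a thyroid hormone-binding protein of Müller glia, was at 77.3 to 98.1 against 160 to 220 CPM (2.12-fold, adjusted p = 0.0038). Of the 20 Müller genes 12 were higher and 1 was lower without overlap, beside 1559 higher and 1023 lower of all 23495 genes tested. Among the 12 were the uncalled glutamine synthetase Glul (441 to 554 against 614 to 775 CPM, adjusted p = 0.25) and vimentin Vim (84.8 against 133 CPM, adjusted p = 0.21).

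Of 23 metallothionein and antioxidant genes 4 were called higher, Hmox1, Mt1, Mt2 and Prdx1 (median 0.47). The metal-binding Mt1 was at 63.1, 93.8, 113 and 129 CPM in controls and 243, 227, 198 and 146 CPM in OIR, and Mt2 was at 5.80 to 17.2 against 19.96 to 35.8 CPM. Their 2.04-fold and 2.42-fold changes (adjusted p = 0.028 and adjusted p = 0.013) were not called with the length trend removed (adjusted p = 0.37 and adjusted p = 0.20), nor was the 1.69-fold change of peroxiredoxin Prdx1 (adjusted p = 0.043, and adjusted p = 0.13 with the trend removed). Mt2 lost the call without control replicate 1 or 2 or OIR replicate 1, Mt1 without control replicate 1, 2 or 3 or OIR replicate 1, 2 or 3, and Prdx1 without any library except OIR replicate 4. The cell cycle inhibitor Cdkn1a, a p53 target, rose 2.14-fold (adjusted p = 0.03), lost without control replicate 1, 2 or 4 or OIR replicate 1, 2 or 3.

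Several of the genes that kept their call throughout belong to none of these groups. Mgp, a matrix protein that binds bone morphogenetic proteins and prevents calcification, was at 3.31, 2.45, 5.09 and 3.72 CPM in controls and 16.5, 18.6, 15.7 and 11.5 CPM in OIR (4.27-fold, adjusted p = 1.1e-05). Id1, a target of bone morphogenetic protein signalling that blocks differentiation factors, was at 15.7, 13.4, 14.5 and 10.7 CPM against 44.3, 51.8, 44.7 and 28.1 CPM (3.11-fold, adjusted p = 2.1e-05). It was the only called member of 20 TGF-beta and bone morphogenetic protein genes, whose median was 0.19. Tmsb4x, the actin-binding thymosin beta 4, was at 382, 432, 490 and 453 CPM in controls and 1233, 945, 1040 and 686 CPM in OIR (2.22-fold, adjusted p = 0.0022), and the actin-branching subunit Arpc1b rose 3.18-fold (adjusted p = 0.00049). Rgs2, a regulator of G-protein signalling, was at 56.2 to 64.4 against 105 to 139 CPM (2.07-fold, adjusted p = 0.00071), and the imprinted neuronatin Nnat at 43.0 to 51.6 against 98.9 to 112 CPM (2.23-fold, adjusted p = 0.00071). The insulin-like growth factor binding proteins Igfbp7 (1.90-fold, adjusted p = 0.021) and Igfbp5 (1.86-fold, adjusted p = 0.044) were called out of 10 genes of that system. Neither kept the call with the length trend removed (adjusted p = 0.11 and adjusted p = 0.061); Igfbp7 held only without control replicate 3 or OIR replicate 4, and Igfbp5 only without OIR replicate 1.

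Lower genes were few and were led by potassium channels. Of 29 voltage-gated potassium channel genes and their subunits 4 were called lower and none higher (median log2 change -0.37). A change below 0 was found in 26 of the 29, while 45.58% of all genes tested had a change above 0. Without single libraries 1 to 3 of the 29 were called. Kcnab2 and Kcnab3 encode beta subunits of Kv1 channels. Kcnab2 was at 231, 277, 242 and 222 CPM against 156, 147, 133 and 174 CPM (adjusted p = 0.01, lost without control replicate 2 or OIR replicate 3), and Kcnab3 was at 39.1 to 44.7 against 15.3 to 28.4 CPM (adjusted p = 0.022). The Kv1 channel gene Kcna2 was at 74.8 to 82.7 against 32.1 to 56.0 CPM (adjusted p = 0.046). With the length trend removed the list's median was -0.19, and only Kcnab3 of the 4 stayed called (adjusted p = 0.035). Kcnab3 lost its call without any control or OIR replicate 1 or 3, and Kcna2 without any library except OIR replicate 3. Kcnj14, an inward rectifier outside the list that was named after its values were seen, was at 513 to 619 against 314 to 402 CPM (adjusted p = 0.049, lost without any 1 of the 8 libraries).

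Lists of neuronal classes gave 1 lower call each for ganglion and amacrine cells and 1 higher call for bipolar cells, beside 0.0979% lower and 0.821% higher of all genes tested. With the length trend removed, none of these lists had a call. The higher gene was Gng13, a G-protein subunit of ON bipolar cells (1.68-fold, adjusted p = 0.035), whose call was kept only without OIR replicate 4 and was lost with the length trend removed (adjusted p = 0.93). Nefh, the neurofilament heavy chain of ganglion cell axons, was at 239, 315, 337 and 208 CPM in controls and 129, 140, 148 and 174 CPM in OIR (0.537-fold, adjusted p = 0.025). The light chain Nefl was at 1517 to 2021 against 912 to 1440 CPM without overlap (adjusted p = 0.11), and ganglion cell identity genes were closer, such as Pou4f1 at 0.835-fold (adjusted p = 0.72) and Rbpms at 0.876-fold (adjusted p = 0.80). The medians were -0.27 over 24 ganglion cell genes and -0.19 over 22 amacrine cell genes, where Slc17a8, a vesicular glutamate transporter, was at 8.92, 8.98, 11.04 and 9.98 CPM against 3.97, 2.66, 3.15 and 2.996 CPM (0.328-fold, adjusted p = 0.045). The groups of Nefh and Slc17a8 did not overlap, yet Nefh lost its call without control replicate 1, 2 or 3 or OIR replicate 1, 2 or 3, Slc17a8 without any library, and both with the length trend removed (adjusted p = 0.19 and adjusted p = 0.12). Of 22 rod genes none was called (median -0.03). Other lower genes were Rph3a, the synaptic vesicle protein rabphilin (76.0 to 97.9 against 36.6 to 60.0 CPM, adjusted p = 0.016, lost without control replicate 2 or 3 or OIR replicate 1), and Bicd2, a dynein adaptor (64.9 to 95.5 against 38.6 to 46.9 CPM, adjusted p = 0.014, lost without control replicate 1 or 2 or OIR replicate 1). Neither was called with the length trend removed (adjusted p = 0.15 and adjusted p = 0.18). Kansl3, a subunit of a histone acetyltransferase complex, was at 76.6 to 95.7 against 35.6 to 64.9 CPM and stayed called with the length trend removed (adjusted p = 0.022), but not without OIR replicate 1. The spectrin gene Sptan1, named after its values were seen, was at 272 to 315 against 179 to 231 CPM (adjusted p = 0.043, kept only without OIR replicate 4).

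**Figure D4:**
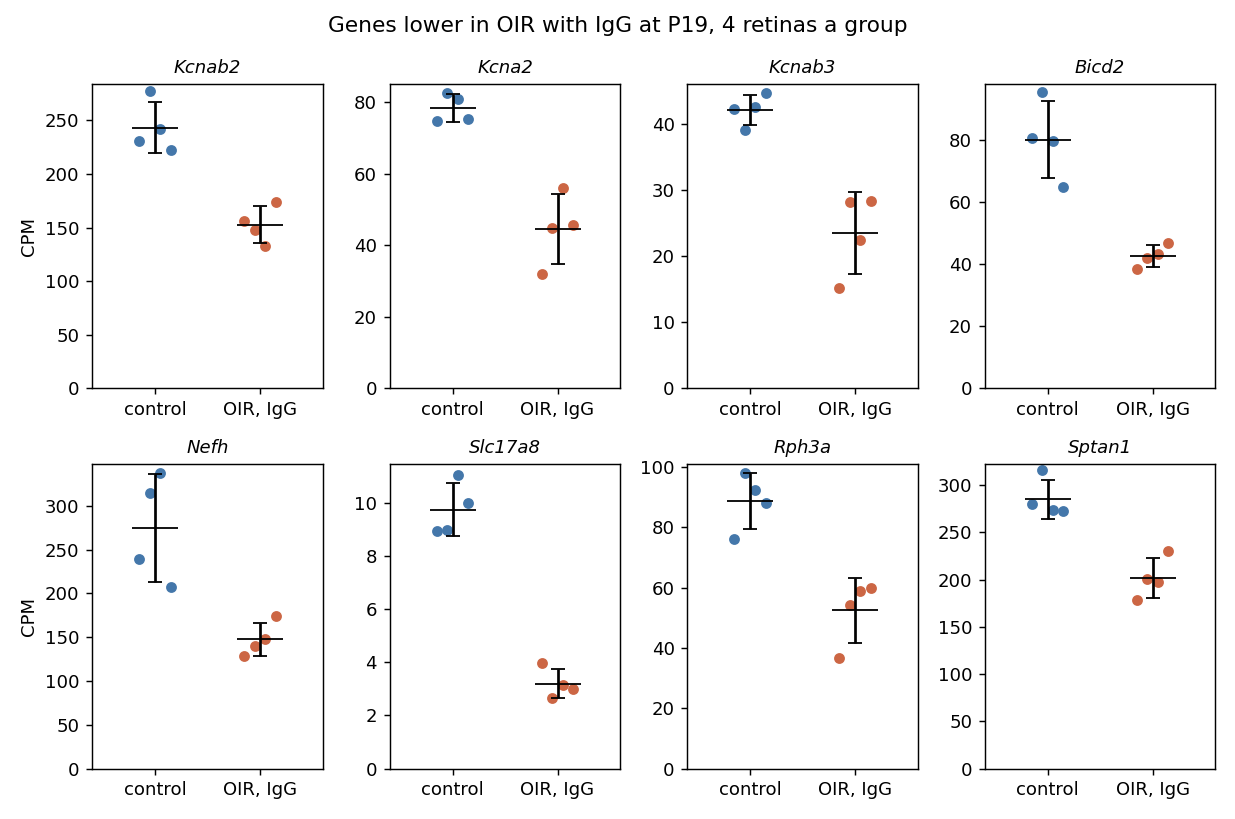
CPM from 0 in the 4 control and the 4 OIR retinas for 8 genes called lower. Each point is 1 retina, the horizontal bar is the group mean and the whiskers are the SD. All OIR retinas lie below all controls, by a factor of 0.328 in the fit for Slc17a8 and 0.708 for Sptan1.

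Short genes made up much of the higher side. Of the 193 higher calls, 88 were among the shortest 10% of the tested genes and 47 among the next 10%, against 1 higher and 4 lower among the longest 10%. Cytosolic ribosomal protein genes, a list chosen after their values were seen, are mostly short. A positive change was found in 82 of 83 (median log2 change 0.67), beside 45.58% of all genes tested, and 15 of the 83 were called. The count was 1, 1, 3 and 1 without control replicates 1 to 4 and 0, 7, 1 and 45 without OIR replicates 1 to 4. Rps29, chosen in the same way, was at 79.9, 90.0, 88.1 and 76.6 CPM in controls and 214, 147, 171 and 117 CPM in OIR (1.94-fold, adjusted p = 0.02, kept only without OIR replicate 2 or 4). With the length trend removed 1 of the 83 stayed called and the median was 0.29. OIR replicate 1 was the highest library for Rps29, and it had the largest deviation in the shortest 10% (0.44) and the lowest mean correlation with the other libraries (0.933). Of 26 nuclear genes of the respiratory chain 1 was called, Ndufa5 (1.77-fold, adjusted p = 0.043, kept only without OIR replicate 4, and adjusted p = 0.37 with the trend removed), and 23 had a positive change. By contrast, with the trend removed 10 of the 11 macrophage calls and 5 of the 6 hypoxia calls remained.

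Immediate early genes, which neurons and glia switch on within minutes of a stimulus, had no called member of 22 (median log2 change 0.67). Without overlap 10 were higher and none lower, beside 1559 higher and 1023 lower of all 23495 genes tested. Fos was at 34.5, 35.3, 41.1 and 34.2 CPM in controls and 62.4, 67.4, 67.6 and 89.7 CPM in OIR (adjusted p = 0.14), and Egr1 at 24.8 to 31.4 against 48.3 to 58.1 CPM (adjusted p = 0.13). The change of Jun was 0.928-fold (adjusted p = 0.90).

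At P17 the same comparison was made with other retinas, and no library is shared between the ages; whether litters were shared is not stated. Of the 193 genes higher at P19, 189 had a positive change at P17, 154 of these at an unadjusted p under 0.05, while 46.35% of all genes tested had a positive change at P17. The trend with gene length was present at P17 too (median log2 change 0.22 in the shortest 10% and -0.39 in the longest), and 135 of the 193 were among the shortest 20%, where 59.59% of all genes had a positive change at P17. At P17 496 genes were called higher (2.11% of those tested); 88 genes were called at both ages, which is 45.6% of the calls at P19 and 17.7% of those at P17. The median log2 change of the 193 was 1.16 at P19 and 0.96 at P17. Of the 23 lower genes 16 had a negative change at P17, 6 of these at an unadjusted p under 0.05, and 2 were called there, where 0.251% of all genes tested were called lower; their median was -0.81 at P19 and -0.22 at P17. Kcnab2, for example, was lower at P19 (243 ± 23.98 to 152 ± 17.2 CPM, SD, n = 4) and stood at 137 ± 26.8 against 167 ± 12.7 CPM at P17. In the test of the difference between ages, the OIR effect differed in 1 gene (0.00426% of the genes tested; edgeR), with 1335 at an unadjusted p under 0.05. That gene was 2900052N01Rik, which has no assigned function (log2 difference of the effects -2.07, adjusted p = 0.006). Its level was 27.7 ± 2.88 against 20.8 ± 4.72 CPM at P19 and 9.84 ± 1.91 against 30.97 ± 9.20 CPM at P17 in control and OIR retinas. For Kcnab2 the difference was -0.96 (adjusted p = 0.16). The immediate early list, with a median of 0.67 at P19, had a median of 0.04 at P17, and glycolysis, at -0.07, had 0.51; neither difference between ages was tested as a list.

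**Figure D5:**
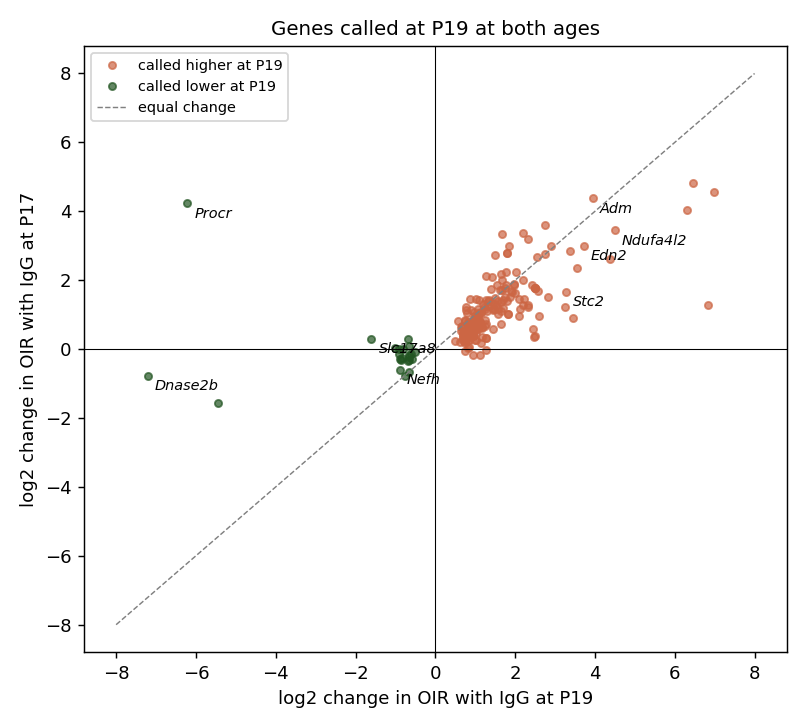
Log2 change in OIR with IgG at P19 (horizontal axis) against that at P17 (vertical axis) for the 216 genes called at P19, 1 point per gene, with the line of equal change dashed. Of the higher genes 189 of 193 lie above 0 at P17, whereas most lower genes lie near 0 there; Procr and Dnase2b, named after their values were seen, lie far out because libraries of 1 group are at or near 0 CPM, so their fitted changes carry no bound.

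The 12 OIR retinas that had received an antibody in place of IgG are compared with the same 4 controls, so their values are given side by side with no test. Ndufa4l2 had group means of 35.8 CPM with anti-VEGFA, 59.4 with anti-ANG2 and 44.3 with the bispecific antibody, beside 46.6 with IgG and 2.05 in controls. Lyz2 was at 32.9, 46.2 and 39.7 CPM, beside 37.02 and 3.53. In both genes, and in Adm, Apln, Higd1b and C1qa to C1qc, all 12 antibody libraries lay above all 4 controls. Other genes called higher had fewer of the 12 above all controls: 10 for Vegfa, 9 for Cx3cr1, 8 for Emcn and 6 for Myl9. All these genes were called against the same 4 controls, so the separation is no separate support, and the share over all genes is not given. Slc17a8 was at 5.045, 2.57 and 4.98 CPM, beside 3.195 with IgG and 9.73 in controls, and all 12 lay below the controls. Mrc1 was at 0.609, 2.36 and 1.91 CPM, beside 2.79 with IgG.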

How the data were processed

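Each sample was the RNA of 1 whole retina, amplified with SMART-Seq and made into Nextera XT libraries, per the labels' protocols, which mention neither strand nor molecular identifiers. Reads were aligned with STAR 2.7.10a and quantified with RSEM 1.3.3 on GRCm38.p4, per the submitters' processing notes; no source used here gives the annotation. The authors deposited expected counts (estimated counts, not normalized) and TPM for 42037 gene rows, of which 2036 are further rows of a symbol. Expected counts were rounded, and edgeR 4.0.16 (R 4.3.3) was fitted to all 40 libraries in 10 groups with TMM scaling, a filter on low counts and robust quasi-likelihood dispersion, adjusting p over 23495 genes. Total counts were 15059714 to 21477010 in the 8 libraries compared, and low genes are limited by counting error. The fit was tested on simulated data. Alternatives used DESeq2 1.42.0, limma 3.58.1 (voom, and log2(TPM + 1) with the deposited TPM), other scaling, filters and samples, sex and contamination covariates, and a replicate block. The alternatives of summing copies, removing the gene-length trend and keeping only retinas with Y-linked counts were chosen after seeing the data.

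Samples were grouped by their labels. The members, gene lists and naming rule were chosen with earlier results of these data known. Named genes are, in each direction, the 12 largest fold changes among called genes (mean of at least 5 CPM, groups not overlapping). To these come up to 6 called members of each list by p, a fixed set of mostly vascular and glial genes, and the gene called in the difference between ages. Uncalled list members and tissue markers were also named with their values, and no fixed rule set which. Any other gene is said to be chosen after its values were seen. The labels do not say whether retinas with the same replicate number share an animal or litter, and the main fit did not pair them. Control and OIR retinas at P19 with the same number deviated from their group means with correlations of -0.0458 to 0.037. These few values cannot show whether the numbers pair the retinas. Values of a few genes are not reported here.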

Additional observations from a re-analysis of the deposited data

Results flagged for a closer look

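In 10 cases among 87 named genes with 2 groups each, 1 of the 4 libraries of a group stood far from the other 3, which chance does in about 1 in 20 groups. In controls, replicate 1 was low for Ctla2a (2.295 CPM against 5.549 to 6.098), Apoe (1170 against 1539 to 1596) and Ctss (31.62 against 42.56 to 43.94). It was high for Esm1 (1.211 against 0 to 0.2036 CPM) and for Mrc1 (0.06374 against 0 CPM). Control replicate 2 was high for Mroh1 (45.41 against 35.73 to 36.84 CPM), control replicate 3 was low for Kdr (54.15 against 97.78 to 101.3 CPM) and control replicate 4 was low for Trem2 (1.425 against 3.57 to 3.866 CPM). OIR replicate 4 was low for Fcer1g (9.294 against 17.8 to 18.3 CPM) and for the main row of Aif1 (1.219 against 2.211 to 2.336 CPM).

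The OIR effect on 2900052N01Rik differed between ages by -2.068 on the log2 scale, by the test of the difference itself.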

How the results depend on the processing

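The count of 216 genes called at P19 (89.4% higher) became 516 with DESeq2 (75.2% higher), 1122 with limma-voom and quality weights (69.8%), 355 with limma-trend on log2(TPM + 1), 761 with only the compared groups (71.5%), 325 with pigment epithelium and lens levels as covariates, 100 with the Y-linked share as a covariate and 114 with the gene-length trend removed. It was 35 when the 2 P19 controls that carried Xist were left out. Without 1 replicate it ranged from 66 to 410. It was 180 with RLE scaling, 145 without the filter and 200 with copies summed. With the replicate block, a pairing by number that the labels do not state, it was 175. The cause of these shifts was not tested. The difference between ages gave 1 gene in the test used, 32 with DESeq2, 28 with limma-voom, 8 on TPM, 13 with only the compared groups and 0 with the pigment epithelium and lens covariates; it was not run on retinas with Y-linked counts alone. Of 1735 combinations of a named gene and a setting, 1374 kept the side of the threshold, 359 lost the call and 2 gained it. Among genes called in either of the fits compared, 0 turned direction. Genes called in neither fit count as kept whatever their direction. Depth limits genes under a few CPM, such as Mrc1 and Casp1.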
